A study of Mus musculus with 4 samples.

Results

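Regulators of signalling through G proteins and cyclic AMP were described in sorted blasts of a mouse megakaryoblastic leukemia. They were 3 cyclic AMP phosphodiesterases (Pde4a, Pde4b and Pde4d), the transcription factor gene Crem, and 5 regulators of G protein signalling (Rgs1, Rgs2, Rgs10, Rgs14 and Rgs19). These 9 genes were picked with earlier results on the same arrays in view, out of 18193 genes represented on the array, of which 11614 were bright enough to be tested. All probe sets that the platform annotation pairs with 1 of these genes alone were taken, 22 in number, and each gene was read from its probe set with the highest mean log2 value over the arrays. The choice of the genes used the difference between spleen and blood, so that difference is described for them without a test.

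The leukemia was induced by retroviral insertional mutagenesis in fetal progenitors that make Gata1s, a short form of the transcription factor GATA1, and the virus carried a GFP reporter by which the blasts were sorted. Blasts came from the peripheral blood and the spleen of 2 mice, untreated and uncultured, which gave 4 arrays, 2 per tissue. Every array, blood and spleen alike, therefore held Gata1-mutant, virus-carrying, GFP-positive cells, and no normal cells are compared here. Both mice bear the same leukemia designation in the labels, which state neither their age nor whether the leukemias arose separately. If they did not, the spread between the mice is that between 2 hosts of 1 leukemia. The labels give both arrays of a mouse the same animal, so each spleen has its own blood to be set against. Array medians lay between 103.7 and 110.6. Of 10 listed markers of megakaryocytes 8 were on the array, their summed intensity lay between 16069 and 20113, and 1 of them, the integrin chain Itgb3, was dim and at or below 0 on at least 1 array. Of the 7 tested, 6 were higher in spleen of both mice, as were 38.5% of all tested genes. Their median log2 difference was 0.34.

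Cyclic AMP is made by adenylyl cyclases, which Gs proteins switch on and Gi proteins restrain, and it acts mainly through protein kinase A. Phosphodiesterases of the PDE4 family destroy it. Protein kinase A activates CREB and its relative CREM, and an internal promoter of Crem makes a short repressor, ICER, in response to cyclic AMP. RGS proteins speed the hydrolysis of GTP by G protein alpha subunits and so shorten the signal of receptors. In platelets and their precursors a high level of cyclic AMP restrains activation.

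A promoter window each of Pde4b, Pde4a and Rgs2 is shown first, picked because it holds a letter match to the site that CREB binds, the cyclic AMP response element. That of Rgs10 is shown because Rgs10 went the other way from Pde4b in the data. Each window runs from 250 bases before an annotated start to 50 after it, from RefSeq on GRCm38.p6, 5′ to 3′ along the gene, and capitals mark the CREB half-site TGACG or its reverse complement CGTCA. The array does not tell which start gave the measured RNA. Pde4b is shown at chr4:102421305-102421604 on the plus strand, Pde4a at chr9:21183851-21184150 on the plus strand, Rgs2 at chr1:144004100-144004399 on the minus strand and Rgs10 at chr7:128418123-128418422 on the minus strand.
Pde4b: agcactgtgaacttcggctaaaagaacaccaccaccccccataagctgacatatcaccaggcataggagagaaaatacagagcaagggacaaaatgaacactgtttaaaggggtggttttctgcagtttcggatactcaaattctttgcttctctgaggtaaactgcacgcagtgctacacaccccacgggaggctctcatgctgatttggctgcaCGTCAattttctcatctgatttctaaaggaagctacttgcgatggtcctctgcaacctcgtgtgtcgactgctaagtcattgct
Pde4a: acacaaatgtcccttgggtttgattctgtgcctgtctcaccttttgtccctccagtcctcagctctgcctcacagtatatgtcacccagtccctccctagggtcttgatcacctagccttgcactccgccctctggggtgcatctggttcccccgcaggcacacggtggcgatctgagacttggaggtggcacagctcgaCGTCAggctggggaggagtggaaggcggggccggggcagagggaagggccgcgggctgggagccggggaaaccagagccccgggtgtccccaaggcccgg
Rgs2: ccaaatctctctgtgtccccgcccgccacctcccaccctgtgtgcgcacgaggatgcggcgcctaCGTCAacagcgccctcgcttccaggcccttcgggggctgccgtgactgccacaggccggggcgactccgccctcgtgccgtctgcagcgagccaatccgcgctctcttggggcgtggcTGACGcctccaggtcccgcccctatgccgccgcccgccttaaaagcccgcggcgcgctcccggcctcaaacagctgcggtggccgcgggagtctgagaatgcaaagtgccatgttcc
Rgs10: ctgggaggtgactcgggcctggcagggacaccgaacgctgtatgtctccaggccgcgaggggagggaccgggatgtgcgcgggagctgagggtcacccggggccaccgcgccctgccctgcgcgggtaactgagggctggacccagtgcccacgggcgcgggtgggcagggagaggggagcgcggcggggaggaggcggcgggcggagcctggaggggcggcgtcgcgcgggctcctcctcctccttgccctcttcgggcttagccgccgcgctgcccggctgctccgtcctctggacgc
The half-site began at position -34 from the start in the Pde4b window, at -50 in the Pde4a window, and at -185 and -67 in the Rgs2 window. The Rgs10 window held none, nor did the windows of Pde4b and Pde4a not shown, or any window of Rgs19 or Pde4d. Over the 6 genes whose windows were counted there were 13 windows, of which 3 held the half-site. Crem, Rgs1 and Rgs14 were not among these 6 genes, and windows on the chromosome of Crem were left out of the count. These counts therefore say nothing of the Crem promoters, while the shares over all genes keep that chromosome. Over all genes, 20.8% of 32851 windows of 300 bases held TGACG on either strand and 1.79% held the full palindrome TGACGTCA, which contains the half-site on both strands. None of the 13 windows held the full palindrome. These matches describe letters in a window and do not show that a factor bound there. Whether the half-site goes with the direction of the difference between tissues was not tested.

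Across the 9 genes, Pde4b had the widest gap between tissues that went the same way in both mice, lower in spleen, and Rgs10 and Pde4d were higher in spleen in both mice. Of the 9, 4 were lower in spleen in both mice (Pde4a, Pde4b, Rgs1 and Rgs19), 2 were higher in both (Pde4d and Rgs10) and 3 went opposite ways (Crem, Rgs2 and Rgs14). Under quantile normalization 5 were lower and 3 higher in both, and with centred arrays 5 were lower, so the signs of the near-flat genes depend on the scaling. Among all 11614 tested, 25.1% had the lower value in spleen in both mice, 38.5% were higher in both and 36.4% went opposite ways. The median of the mean differences was -0.16 over the 9 genes and 0.03 over all tested genes, on the log2(intensity + 16) scale used for every difference here. The 2 spleen arrays did not overlap the 2 blood arrays for 4 genes, Pde4b and Rgs1 on the low side and Pde4d and Rgs10 on the high side. Over all tested genes 17.6% had both spleen arrays below both blood arrays and 27.5% had both above. These counts restate how the genes were picked, and nothing is read from them.

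**Figure D1:**
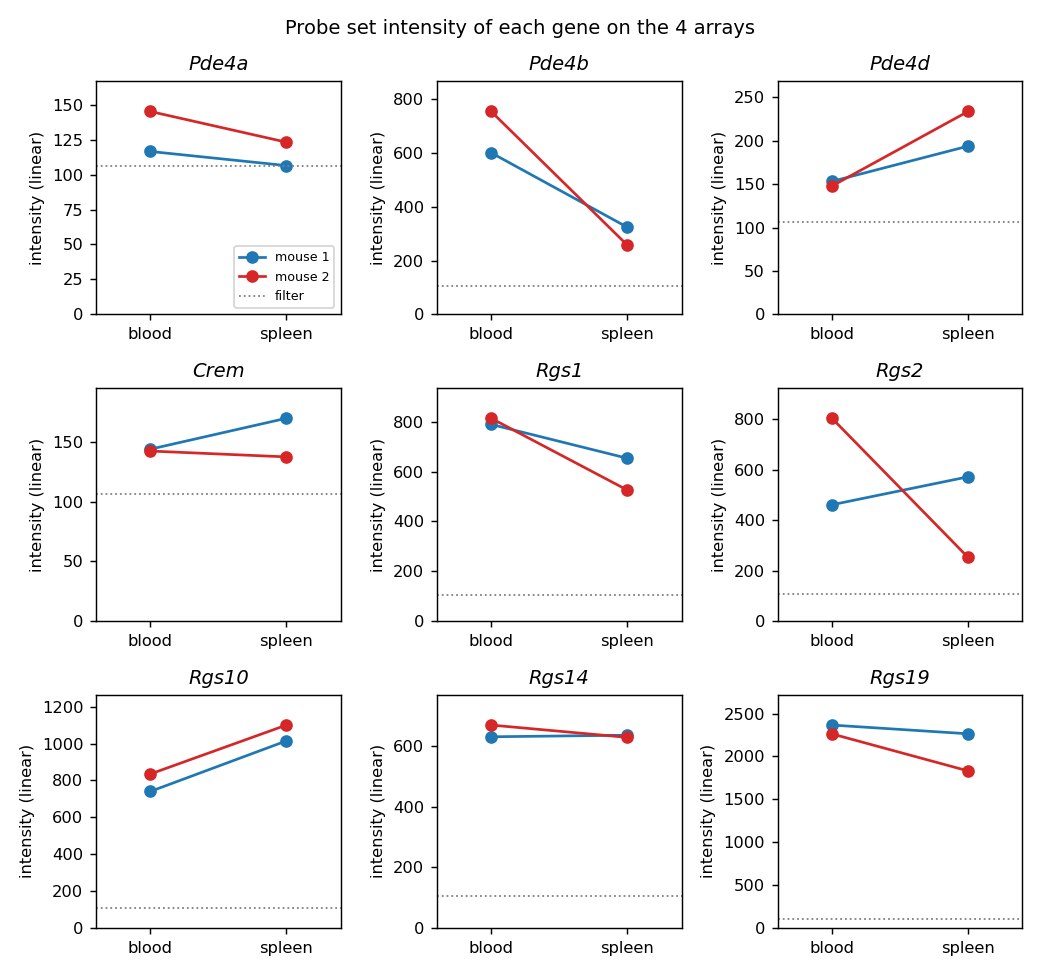
Intensity (linear, from 0) of each of the 9 genes in blood and spleen, with a line joining the 2 arrays of a mouse and a dotted line at the brightness filter of 106. Pde4b is lower in spleen of both mice, Rgs10 is higher in both by like amounts, and the lines of Rgs2 cross.

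Pde4b encodes the PDE4 enzyme best known in leukocytes, where its RNA answers inflammatory stimuli. Its intensity was 601 in blood of mouse 1 with 324 in its spleen, and 755 in blood of mouse 2 with 258 in its spleen. Both spleen values lay below both blood values. Blood averaged 678 ± 109 (SD, n = 2 arrays) and spleen 291 ± 47.0. The log2 difference was -0.86 in mouse 1 and -1.49 in mouse 2, which is 1.81-fold and 2.81-fold lower in spleen. A difference of at least 2-fold in mouse 2 was found for 1.61% of all tested genes, and in mouse 1 for 0.499%.

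The size of the Pde4b difference depended on the probe set. The gene had 6 probe sets, 3 of them above the brightness filter. The other 2 bright ones had intensities of 329, 299, 368 and 216, and of 324, 325, 353 and 279, reading blood then spleen of mouse 1 and then of mouse 2. Their log2 differences were -0.13 and -0.73 for the first and 0.0036 and -0.32 for the other. All 3 were lower in spleen of mouse 2, and 1 of them was level in mouse 1. With the mean of all 6 probe sets the difference over both mice was -0.44 in place of -1.18. The mean of the probe set used, -1.18, had an SD of 0.45 between the mice. Which transcripts of Pde4b each probe set reads is not known here.

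Pde4d, a sister enzyme encoded by a separate gene, went the other way. Its intensity was 153 in blood of mouse 1 with 194 in its spleen, and 148 in blood of mouse 2 with 234 in its spleen. Both spleen arrays stood above both blood arrays. The log2 differences were 0.31 and 0.61, and the blood arrays differed by 0.05 between the mice. Its other probe set was dim on every array, with a mean intensity of 8.28.

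Pde4a, the third PDE4 gene on the list, lay close to the filter of 106, with 117 (blood) and 106 (spleen) in mouse 1 and 145 and 123 in mouse 2. It was lower in spleen within each mouse, by -0.11 and -0.21. The tissues overlapped, since spleen of mouse 2 was brighter than blood of mouse 1. The gap between the mice, 0.28 in blood and 0.18 in spleen, was of like size to that between tissues.

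**Figure D2:**
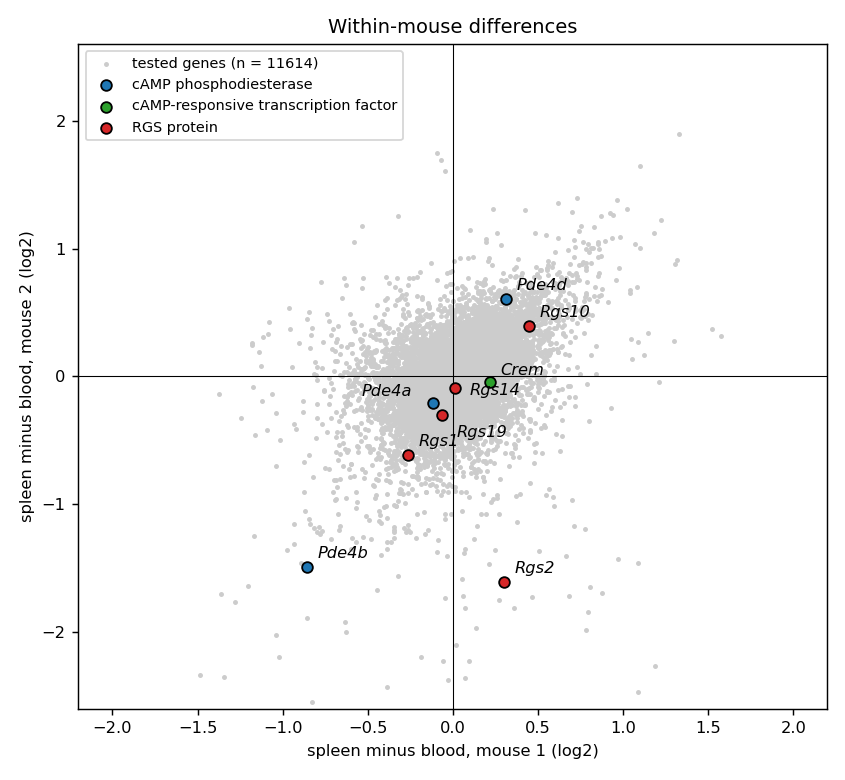
Spleen minus blood (log2) in mouse 1 on the x axis and in mouse 2 on the y axis; grey points are the 11614 tested genes, 30 of which lie outside the axes, and coloured points are the 9 genes by role. Pde4b lies low on both axes, Rgs2 lies at 0.30 and -1.61, and Pde4d and Rgs10 lie in the upper right.

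Crem showed no shared shift. Its main probe set stood at 144 (blood) and 170 (spleen) in mouse 1 and at 143 and 138 in mouse 2. The 2 blood arrays were level with each other and the spleen arrays lay on either side of them. The log2 differences were 0.22 and -0.05. A second probe set, close behind in brightness with a mean of 139 against 149, stood at 122 (blood) and 134 (spleen) in mouse 1 and at 131 and 169 in mouse 2, so it was higher in spleen in both mice. The 2 remaining probe sets were below the filter, with means of 75.9 and 23.0. The files do not tell which probe set reads ICER, so the repressor form is not described separately.

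Rgs1, a GTPase activator for Gi and Gq subunits that dampens chemokine receptors in lymphocytes, was lower in spleen in both mice. Its single probe set stood at 790 (blood) and 654 (spleen) in mouse 1 and at 814 and 526 in mouse 2. The tissues did not overlap, and the 2 blood arrays differed by 0.04 on the log2 scale. The log2 differences were -0.27 and -0.61.

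Rgs2, which prefers Gq and is induced by many stimuli, differed most between the mice. Its intensity was 461 in blood of mouse 1 with 572 in its spleen, against 804 in blood of mouse 2 with 253 in its spleen. Blood of mouse 2 was the brightest array and spleen of mouse 2 the dimmest, with both arrays of mouse 1 between them. The log2 differences were 0.30 in mouse 1 and -1.61 in mouse 2, a 3.05-fold lower spleen value in mouse 2. Over both mice the mean was -0.65 with an SD of 1.35 between the 2 differences, so the spread exceeded the mean. With all its probe sets averaged the mean was -0.24, and it was -0.09 without spleen of mouse 2 and -1.22 without spleen of mouse 1.

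The other bright probe sets of Rgs2 had the same direction in mouse 2. One had 469, 464, 763 and 281, listed as blood and spleen of each mouse in turn, with differences of -0.01 and -1.39. The third, dimmer, had 160, 278, 236 and 141, with differences of 0.74 and -0.68. All 3 were lower in spleen of mouse 2, while in mouse 1 they ranged from level to higher in spleen. Its remaining probe set was dim, with a mean of 23.2.

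**Figure D3:**
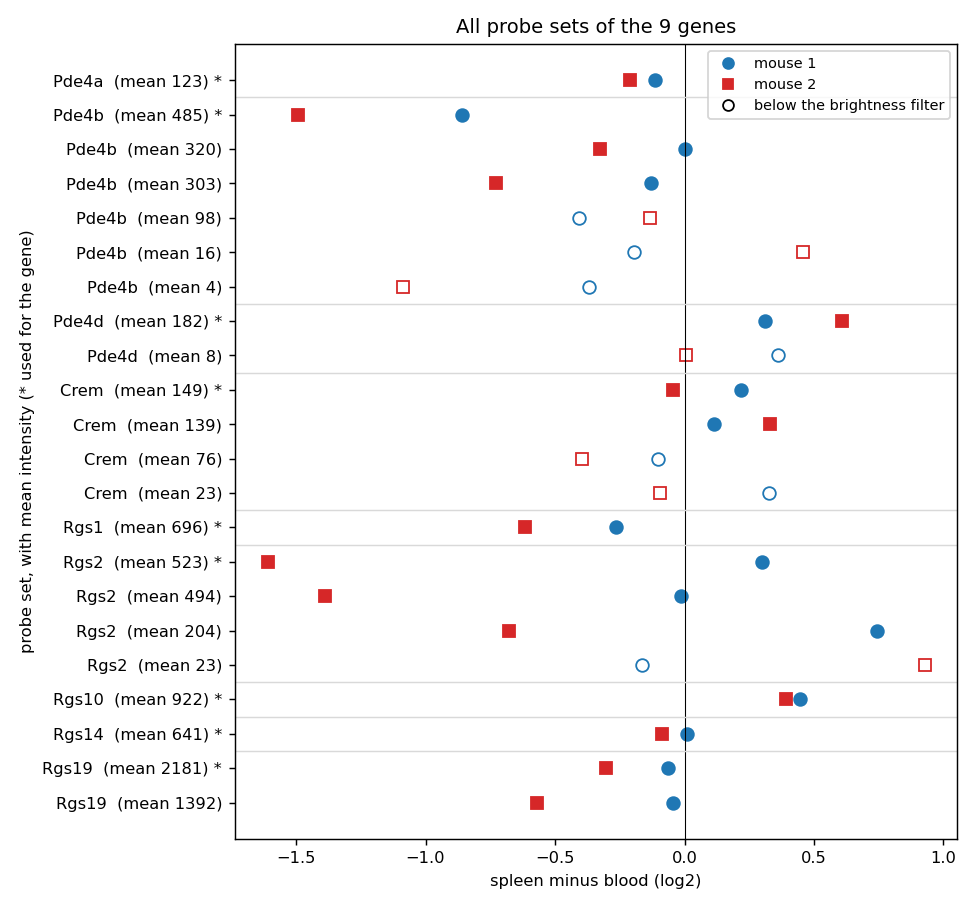
Spleen minus blood (log2) in mouse 1 (circles) and mouse 2 (squares) for all 22 probe sets of the 9 genes, with the mean intensity beside each; open symbols are the 7 probe sets below the brightness filter and a star marks the probe set used. The 3 bright probe sets of Pde4b and of Rgs2 share the sign of mouse 2 and spread in mouse 1.

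Rgs10, a small RGS protein that acts on Gi subunits and is abundant in platelets, was higher in spleen by almost the same amount in both mice. Its single probe set stood at 740 (blood) and 1014 (spleen) in mouse 1 and at 835 and 1100 in mouse 2. The tissues did not overlap. Blood averaged 787 ± 66.8 (SD, n = 2 arrays) and spleen 1057 ± 60.7. The log2 differences were 0.45 and 0.39, with an SD between them of 0.04, the smallest of the 9 genes.

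Rgs14, which combines an RGS domain with Ras and Gi binding regions, was nearly flat. Its intensities were 631 (blood) and 636 (spleen) in mouse 1 and 669 and 629 in mouse 2. The range over all 4 arrays was 0.09 on the log2 scale.

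Rgs19, also named GAIP, which acts on Gi subunits, was slightly lower in spleen. Its main probe set stood at 2365 (blood) and 2264 (spleen) in mouse 1 and at 2262 and 1831 in mouse 2. The low array was spleen of mouse 2, and the other 3 were close together. The differences were -0.06 and -0.30, and its other probe set gave -0.05 and -0.57. The main probe set is of a type (x_at) that can also bind other sequences, by the naming of the array's maker.

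Mouse 2 had the larger difference for 7 of the 9 genes, all but Crem and Rgs10, and for 55.0% of all tested genes. Between the mice no gene of the 9 differed at least 2-fold in both tissues, as 0.0861% of the tested genes did. The widest such gaps were those of Rgs2, with mouse 2 higher by 0.78 in blood and mouse 2 minus mouse 1 at -1.13 in spleen.

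Markers of other blood cells moved with several of these genes. Pde4b, Rgs1, Rgs2 and Rgs14 were brightest in blood of mouse 2 and dimmest in spleen of mouse 2, an order that 11.9% of tested genes had. For Rgs14 the order lay within a range of 0.09 on the log2 scale, so that gene hardly moved. Among tested markers, 7 of 9 for granulocytes had that order, as did 5 of 8 for macrophages and monocytes, 4 of 11 for T and NK cells and 0 of 7 for megakaryocytes. The order was not particular to markers. Of the signalling lists described below, 6 of 10 tested CREB target genes and 3 of 7 adenylyl cyclases had it. Each other signalling list held between 0 and 2 such genes. The summed intensity of the 11 granulocyte markers on the array was 7097 (blood) and 4372 (spleen) in mouse 1 and 17488 and 1423 in mouse 2. That of the 12 macrophage markers was 1923, 2561, 4087 and 1418, and that of the 13 T and NK cell markers 8093, 9290, 11290 and 6173, in the same order of arrays.

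Rgs2 followed the macrophage and the T and NK cell sums in direction in both mice, higher in spleen of mouse 1 and lower in spleen of mouse 2. Single markers did not all do so. Lower in spleen of both mice were 4 of 11 tested T and NK markers and 2 of 8 macrophage markers. The other 7 T and NK markers went opposite ways in the mice, and not all of them in the way of Rgs2. Cd3e was at -0.26 in mouse 1 and 0.02 in mouse 2. The median log2 difference of the T and NK markers in mouse 1 was 0.02. Pde4b followed the granulocyte sum in direction, lower in spleen of both. No marker of these 3 lists was at 0 on all arrays, but Camp of the granulocyte list and C1qa of the macrophage list were at or below 0 on at least 1 array. The macrophage markers Cd14, C1qa, C1qb and C1qc and the T cell markers Cd3d and Cd5 were below the filter. Of 9 B and plasma cell markers, 7 were below it, and their sum stayed between 712 and 756. The sum of 8 erythroid markers lay between 5498 and 6163. The sort was for GFP, and the part of other cells in these results was not tested. In sorted bulk RNA, fewer cells of a type and less RNA per cell cannot be told apart.

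**Figure D4:**
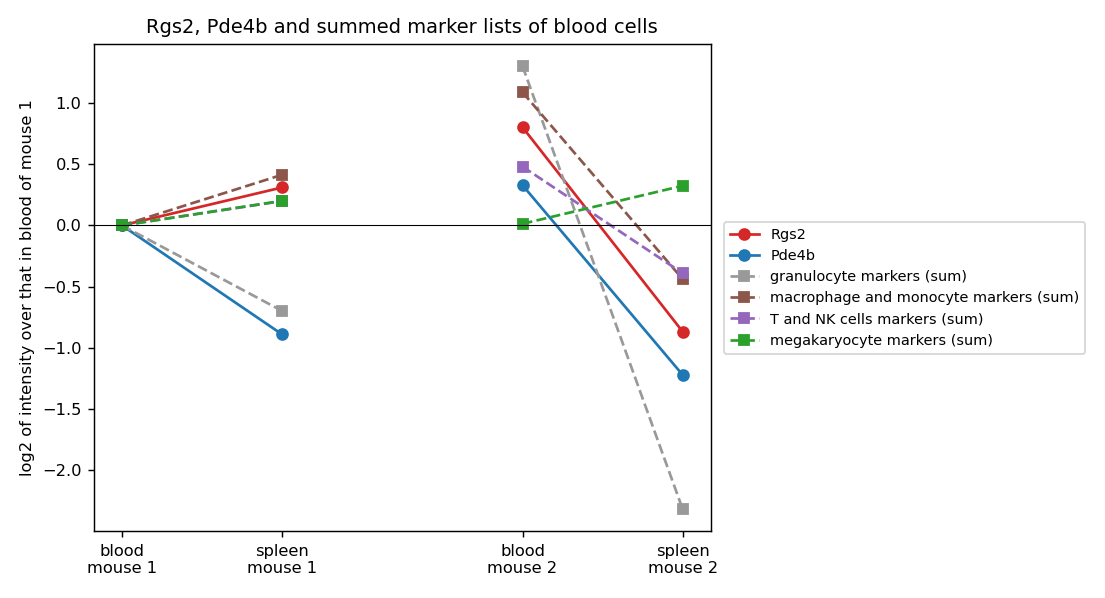
Intensity of Rgs2 and Pde4b and summed intensity of 4 marker lists, each as the log2 ratio to its own value in blood of mouse 1; lines join the 2 arrays of a mouse. In mouse 2 Rgs2, Pde4b and the granulocyte, macrophage and T and NK cell sums are all lower in spleen than in blood, while the megakaryocyte sum is at 0.01 in blood and 0.32 in spleen; in mouse 1 the T and NK cell and megakaryocyte lines coincide.

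The tested genes whose 4 values ran closest to those of a member, after centring each gene on its own mean, were listed for the 4 members with the widest range. For Rgs2 they were the NK cell receptor gene Ncr1, Klrd1, a partner of NKG2 receptors and a marker on the T and NK list, and Ctsh, which encodes cathepsin H, at distances of 0.14, 0.15 and 0.16. Klrd1 stood at 121 (blood) and 160 (spleen) in mouse 1 and at 238 and 56.4 in mouse 2. Ncr1 stood at 94.1 (blood) and 136 (spleen) in mouse 1 and at 195 and 47.8 in mouse 2. It was thus below the brightness filter in blood of mouse 1 and in spleen of mouse 2. Klrd1, and Ctsh at 97.1, were below that filter in spleen of mouse 2. The distances of these genes to Rgs2 therefore rest in part on the offset added before log2 was taken.

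For Pde4b the closest were Prkab1, a subunit of AMP-activated kinase, Ppp1r15a (also named Gadd34), a stress-induced phosphatase regulator, and Dennd4a. Their distances were 0.19, 0.22 and 0.22. For Rgs1 they were Spertl, Pkd2l1 and Amigo2, each at 0.05, and for Pde4d they were Haus4, Pdk3 and Prcp, each at 0.03. Distances are over 4 arrays and in log2 units. These names are a description, drawn from 11614 genes.

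The rest of the cyclic AMP and G protein machinery was read from 8 lists of 126 genes, of which 115 were on the array and 82 were tested. Spleen was compared with blood by limma across all tested genes with Benjamini-Hochberg adjustment. By that test 0 of 11614 genes passed at an adjusted p of 0.05, the smallest adjusted p was 0.140, and so 0 of the 82 passed in either direction. With 2 arrays per tissue this does not show that they were level. At an unadjusted p under 0.05, 8.12% of all tested genes were higher and 4.31% lower in spleen. Errors below are standard errors of this fit with 2 arrays per tissue. The lists were chosen with earlier results of these data known, and 2 genes of each were named for the size of their difference. The p-values and counts below therefore describe these genes and are no independent test of them.

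Of 8 tested receptors that couple to Gs or Gi, 5 were higher and 2 lower in spleen of each mouse. Their median difference was 0.15, and it lay between 0.029 without spleen of mouse 1 and 0.30 without blood of mouse 1. It was 0.28 without spleen of mouse 2, 0.034 with no brightness filter and 0.39 with the stricter one. At an unadjusted p under 0.05, 3 were higher and 2 lower. The chemokine receptor Cxcr4, which couples to Gi and keeps cells in bone marrow, stood at 359 (blood) and 599 (spleen) in mouse 1 and at 429 and 664 in mouse 2, a difference of 0.66 ± 0.14 (limma adjusted p = 0.194). The Gs-coupled histamine receptor Hrh2 stood at 190 (blood) and 126 (spleen) in mouse 1 and at 213 and 146 in mouse 2, a difference of -0.52 ± 0.13 (limma adjusted p = 0.252). The 2 receptors thus went opposite ways, and neither passed.

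G protein subunits had a median difference of 0.02 over 18 tested genes, which turned to -0.048 with quantile normalization and -0.012 with centred arrays, and counted 7 higher and 3 lower in both mice and 8 going opposite ways. Without spleen of mouse 2 it was 0.082, and without blood of mouse 2 it was 0.040. At an unadjusted p under 0.05, 1 was higher and 1 lower, or 3 higher and 1 lower with mouse as a block. Gng2, a gamma subunit, stood at 249 (blood) and 152 (spleen) in mouse 1 and at 250 and 158 in mouse 2, a difference of -0.64 ± 0.11 (limma adjusted p = 0.150). Gng10, another gamma subunit, went the other way by 0.45 ± 0.15 (limma adjusted p = 0.343). The Gs subunit Gnas was level, with 5228 and 5246 in mouse 1 and 5694 and 5271 in mouse 2.

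Of 7 tested adenylyl cyclases, 3 were lower in spleen of each mouse and 0 were higher in both, with a median difference of -0.12. That median was -0.23 without spleen of mouse 2 and -0.20 with quantile normalization. Adcy7, a cyclase of blood cells, stood at 3167 (blood) and 2760 (spleen) in mouse 1 and at 3776 and 2624 in mouse 2. Its difference was -0.36 ± 0.13 and that of Adcy9 -0.31 ± 0.12, with limma adjusted p of 0.367 and 0.381. These 2 were the cyclases with an unadjusted p under 0.05.

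The other phosphodiesterases of cyclic AMP mostly went opposite ways in the mice, 5 of 7 tested, with a median difference of -0.0075. The sign of that median rests on single arrays, since it was 0.27 without blood of mouse 2, 0.056 without spleen of mouse 2, -0.22 without blood of mouse 1 and -0.071 without spleen of mouse 1. Pde10a was the one higher in both, at 308 (blood) and 355 (spleen) in mouse 1 and at 231 and 503 in mouse 2, a difference of 0.63 ± 0.21 (limma adjusted p = 0.344). Pde1b, which calcium and calmodulin activate, was the one lower in both, at -0.34 ± 0.12 (limma adjusted p = 0.356). Pde3a and Pde3b, the platelet and fat-cell forms of the PDE3 family, each went opposite ways, at 0.09 and -0.19 and at 0.20 and -0.33.

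Among protein kinase A subunits, its inhibitors, anchors and the EPAC exchange factors, 5 of 14 were higher and 4 lower in both mice, with a median of 0.04, which turned to -0.0038 with quantile normalization. As arrays were left out it ran from 0.0042 without spleen of mouse 1 to 0.11 without spleen of mouse 2, with 0.011 without blood of mouse 1. Prkar2b, a regulatory subunit, stood at 2408 (blood) and 3192 (spleen) in mouse 1 and at 2438 and 3052 in mouse 2, a difference of 0.36 ± 0.11 (limma adjusted p = 0.317). The exchange factor Rapgef3, which encodes EPAC1, was at -0.36 ± 0.13 (limma adjusted p = 0.364). The catalytic subunit Prkaca was at -0.02 and 0.02 in the mice.

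Of the CREB family and its coactivators 3 of 8 were higher and 3 lower in both mice, with a median of -0.03. That median was 0.080 without blood of mouse 1, 0.021 without spleen of mouse 2, -0.14 without spleen of mouse 1 and -0.13 without blood of mouse 2, and it was also above 0 with no brightness filter (0.024) or a stricter one (0.043). The coactivator Crtc2 stood at 256 (blood) and 132 (spleen) in mouse 1 and at 223 and 135 in mouse 2. Its difference of -0.77 ± 0.12 (limma adjusted p = 0.144) was the one of this list with an unadjusted p under 0.05. Crtc1 was at -0.19 ± 0.11 and Creb1 at 0.11 ± 0.14, with limma adjusted p of 0.525 and 0.789.

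Of 19 genes on the array that CREB is known to drive, 10 were tested and the rest were below the filter. Of the 10, 8 were lower in spleen of each mouse and 0 were higher in both. Among all tested genes 25.1% were lower and 38.5% higher in both. The median over the 10 was -0.21, and it was -0.18 with no brightness filter. It was -0.66 without blood of mouse 1, -0.46 without spleen of mouse 2, -0.61 with the stricter filter and -0.98 with probe set means. Several are also immediate early genes that other signals induce. Fos stood at 299 (blood) and 67.7 (spleen) in mouse 1 and at 855 and 3.26 in mouse 2. Both spleen arrays lay below the filter of 106, so the size of its log2 difference rests on the offset of 16 and is not given. Dusp1, a phosphatase of MAP kinases, was at -2.92 ± 0.54 (limma adjusted p = 0.171). Fos, Dusp1, Egr1 and Junb had an unadjusted p under 0.05, which made 4 lower and 0 higher. The nuclear receptor Nr4a1 stood at 1630 (blood) and 1541 (spleen) in mouse 1 and at 1620 and 1528 in mouse 2, a difference of -0.08 ± 0.11. The list thus held a few wide gaps beside genes that hardly differed.

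Other RGS genes had a median difference of -0.02, with 2 of 10 higher and 4 lower in both mice. The median turned to 0.15 with the stricter filter, and it was -0.069 without blood of mouse 2, -0.044 without spleen of mouse 2, -0.033 without spleen of mouse 1 and -0.029 without blood of mouse 1. Rgs18, which is known from platelets and megakaryocytes, stood at 5511 (blood) and 6267 (spleen) in mouse 1 and at 4773 and 5605 in mouse 2, a difference of 0.21 ± 0.13 (limma adjusted p = 0.560). Rgs8 was at -0.53 ± 0.12 and Rgs6 at -0.28 ± 0.11, with limma adjusted p of 0.222 and 0.391. Rgs8 and Rgs6 are known mainly from the nervous system and were dim here, with means of 165 and 122 close to the filter. Rgs5, Rgs7, Rgs13 and Rgs16 were below it.

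**Figure D5:**
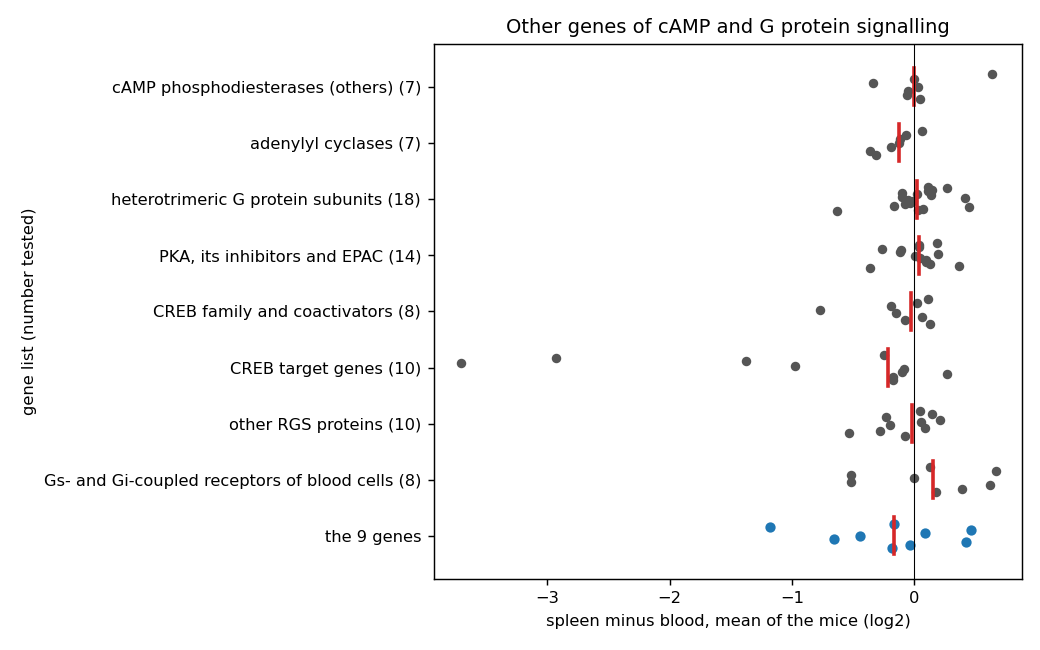
Spleen minus blood (log2, mean of the 2 mice) of each tested gene in 8 lists of cyclic AMP and G protein signalling and of the 9 genes; red bars are medians. The medians lie between -0.21 for CREB target genes and 0.15 for receptors, with Dusp1 and Fos far to the left; the place of Fos rests on the offset.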

How the data were processed

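Gene expression was measured on 4 Affymetrix mouse arrays, 2 of blood and 2 of spleen blasts. The values as deposited are linear intensities per probe set; the authors' summary and scaling steps are not given in the sources used. Values below 0, between 1.60% and 2.17% of an array, were set to 0, 16 was added and log2 was taken, so differences of dim genes are understated. Precision is limited by there being 4 arrays.

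Of 45101 probe sets, 34945 had 1 gene symbol in the platform annotation, 932 had several and 9160 had none; 64 were controls. Symbols were updated by Entrez identifier with RefSeq (GRCm38.p6), which held 34741. RefSeq also lists Rgs14 as a synonym of Rgs16, whose probe sets were not taken. Genes with a mean at or above the median probe set (intensity 106) were tested with limma 3.58.1 in R 4.3.3 (two-sided, tissue as sole term), checked on simulated data. The labels name the animal, so arrays pair by mouse; across genes, r between the mouse differences of the 2 tissues was 0.10.

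The members and lists were chosen with earlier results of these data known. All 9 members are named, with the 2 genes of each list whose smaller within-mouse difference of 1 direction was largest, further list genes as examples, and the nearest 3 genes of 4 members by Euclidean distance. Offsets, scaling, filters, probe set means, mouse as a block, an intensity trend and leaving out each array were tried. P-values rest on the spread between arrays of a tissue, drawn toward that of all tested genes, and leave out the pairing by mouse. They speak for these 2 mice only.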

Additional observations from a re-analysis of the deposited data

Results flagged for a closer look

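For 3 of the 9 genes spleen minus blood had opposite signs in the 2 mice. The difference between the mice was not tested, with 1 array per mouse and tissue. For Rgs2 the log2 difference in mouse 2 minus that in mouse 1 was -1.91. For Crem it was -0.26, and for Rgs14 it was -0.10, both with within-mouse differences of at most 0.22 in size.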

How the results depend on the processing

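No gene passed over the 11614 tested genes; the stricter brightness filter gave 40 calls, an intensity trend in the prior 45, and leaving out 1 array between 0 and 20, the 20 without spleen replicate 1. Dusp1 and Fos, the latter below the filter in spleen, were among those 20, and no other gene of the 8 lists was called under any setting. With mouse as a replicate block, 0 genes passed and differences kept their values by construction. Of the 9 genes 4 were lower in both mice, or 5 with quantile normalization or centred arrays; 2 were higher, or 3 with quantile normalization, and under the stricter filter, which kept 6 of the 9, 1 was higher. Pde4b was at -0.44 with the mean of all its probe sets and at -1.18 with the one used. Rgs2 was at -0.65 as reported and at -0.24 with probe set means, and it ranged from -1.22 without spleen replicate 1 to -0.09 without spleen replicate 2. As arrays were left out, Pde4a ranged from -0.30 to -0.02, Rgs10 from 0.33 to 0.50, Rgs1 from -0.59 to -0.29, Rgs19 from -0.33 to -0.03, Crem from -0.05 to 0.22 and Rgs14 from -0.08 to 0.0035. The median of the G protein subunits was 0.023 as reported, -0.048 with quantile normalization and -0.012 with centred arrays. That of the CREB family was -0.027 as reported, 0.024 with no filter and 0.043 with the stricter one, and between -0.14 and 0.080 as arrays were left out. That of the other RGS genes turned from -0.02 to 0.15 with the stricter filter, and that of the kinase A list from 0.04 to -0.0038 with quantile normalization. As arrays were left out, the median of the other phosphodiesterases ran from -0.22 to 0.27, that of the cyclases from -0.23 to -0.090, that of the kinase A list from 0.0042 to 0.11, that of the receptors from 0.029 to 0.30 and that of the CREB targets from -0.66 to -0.21. The receptor median was 0.034 with no filter and 0.39 with the stricter one. That of the CREB targets was -0.98 with probe set means, -0.61 with the stricter filter and -0.18 with no filter. The cause of these shifts was not tested. Brightness limits Pde4a, Crem and Pde4d, which lie nearest the filter of 106 and which the stricter filter dropped. With Pde4d gone, Rgs10 was the gene left as higher in both mice under that filter.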
